A study of Rattus norvegicus with 30 samples.

Results

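The genes that encode the proteins of the mitochondrial ribosome were followed in rat stomach, jejunum and colon after irinotecan. They were chosen by name: every gene whose symbol starts with Mrpl or Mrps and a number and to which at least 1 probe set of the array is assigned alone. This gave 73 of the 14217 genes on the array. Their 97 probe sets are part of the 31042 that were tested. For 55 of these genes 1 probe set was present, and for the other 18 there were several, at most 4. A gene was represented by its brightest probe set, the one with the highest mean over all arrays.

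The study gave female DA rats of 10 weeks 1 intraperitoneal dose of irinotecan (200 mg/kg) under light halothane anaesthetic and killed them 1, 6, 24 or 72 h later. Rats of the 0 h group got no drug, and the labels do not say if they were anaesthetised or injected with vehicle. Each of the 15 groups, 3 tissues at 5 times, had 2 arrays, and each array carried RNA pooled from 3 rats. There were 30 rats, 6 per time, which means that stomach, jejunum and colon were taken from shared animals. Sections of the whole organ wall were used, so that fewer cells of a type and less RNA per cell cannot be told apart. Irinotecan is a prodrug whose product SN-38 traps DNA topoisomerase I on DNA, and damage to the gut lining is its known side effect.

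The mitochondrial ribosome makes the few proteins that mitochondrial DNA encodes, all of them subunits of the respiratory chain and ATP synthase. Its RNA comes from mitochondrial DNA, while all of its proteins are encoded in the nucleus, made in the cytosol and imported. Some of these proteins descend from bacterial ribosomal proteins and others are found only in mitochondria. In the gut, absorptive cells of the lining and smooth muscle of the wall both hold many mitochondria.

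Of the 73 genes, 48 encode proteins of the large subunit, which joins amino acids, and 25 encode proteins of the small subunit, which reads the message. Mrps18a and Mrps30 are counted in the large subunit, where their proteins sit despite their names. In the lists used, 42 are counted with a bacterial counterpart and 31 as found only in mitochondria. Mrps18a, a relative of Mrps18b and Mrps18c, is counted among the 31. All 73 were matched to the current gene table by identifier, with no change of symbol. The signals were high: on the log2 scale of the deposited values the mean of a gene over 30 arrays ran from 7.50 to 10.6, with a median of 9.21, and 72 of the 73 lay above the median gene of the array (7.75). Signals of different probe sets are not comparable as amounts, so only differences of 1 probe set between arrays are read below.

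Promoter sequences are shown because most of these genes rose between 24 and 72 h in the jejunum, as described further on. RefSeq entries on build GRCr8, which hold 250 bases before and 50 after the start of the gene, were matched for 59 of the 73 genes. No entry was matched for Mrpl13, Mrpl15, Mrpl16, Mrpl19, Mrpl21, Mrpl35, Mrpl38, Mrpl43, Mrps12, Mrps22, Mrps24, Mrps28, Mrps34 and Mrps35. The 4 sequences below belong to genes among the 10 highest called rises in the jejunum between 24 and 72 h, and were picked because they hold at least 1 of the letters searched; the promoters of Mrpl39 and Mrps9, also among these 10, hold none. They lie at chr20:2842756-2843055 on the plus strand (Mrps18b), chr17:55260401-55260700 on the plus strand (Mrpl32), chr10:101342392-101342691 on the plus strand (Mrps7) and chr5:68668038-68668337 on the minus strand (Mrpl50). Capitals mark the letters CGCATGCG, AAGATGGC or its complement GCCATCTT, CTTCCGG (the complement of CCGGAAG) and CACGTG.
Mrps18b: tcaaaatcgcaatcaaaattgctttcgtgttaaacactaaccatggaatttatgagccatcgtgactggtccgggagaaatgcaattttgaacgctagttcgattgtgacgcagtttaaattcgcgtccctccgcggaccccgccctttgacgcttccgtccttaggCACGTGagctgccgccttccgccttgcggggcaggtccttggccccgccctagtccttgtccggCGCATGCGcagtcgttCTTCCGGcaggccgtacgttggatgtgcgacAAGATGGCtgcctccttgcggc
Mrpl32: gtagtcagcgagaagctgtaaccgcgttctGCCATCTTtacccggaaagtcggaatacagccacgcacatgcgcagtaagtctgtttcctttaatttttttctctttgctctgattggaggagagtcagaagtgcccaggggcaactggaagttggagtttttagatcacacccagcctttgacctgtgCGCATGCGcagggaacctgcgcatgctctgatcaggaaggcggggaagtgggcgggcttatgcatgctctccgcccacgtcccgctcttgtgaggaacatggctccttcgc
Mrps7: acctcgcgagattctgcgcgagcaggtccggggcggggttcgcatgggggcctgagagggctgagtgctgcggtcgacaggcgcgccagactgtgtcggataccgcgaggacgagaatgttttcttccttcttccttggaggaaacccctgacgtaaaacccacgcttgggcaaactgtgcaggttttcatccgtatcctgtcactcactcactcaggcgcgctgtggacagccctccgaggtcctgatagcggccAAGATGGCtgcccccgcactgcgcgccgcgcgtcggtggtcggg
Mrpl50: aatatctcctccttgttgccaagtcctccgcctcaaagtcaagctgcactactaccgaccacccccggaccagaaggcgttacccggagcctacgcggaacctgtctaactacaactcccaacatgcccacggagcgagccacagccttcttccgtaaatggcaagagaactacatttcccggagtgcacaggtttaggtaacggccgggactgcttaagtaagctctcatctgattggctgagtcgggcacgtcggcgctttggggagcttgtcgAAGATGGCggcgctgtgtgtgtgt
The first letters are the core of the element read by NRF1, the second that of YY1, the third that of ETS factors such as GABPA, all known regulators of nuclear genes for mitochondria, and the last is the E-box read by MYC among others. Both strands were searched, and the marked motifs do not overlap in the sequences shown.

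The NRF1 letters CGCATGCG were present in 6 of 59 promoters (10.2%), those of Mrpl10, Mrpl17, Mrpl22, Mrpl32, Mrpl44 and Mrps18b. Among all 19005 genes with an entry the share was 2.29%, and among 3014 bright genes, those of the 3555 with the highest mean signal that have an entry, it was 4.41%. The YY1 letters AAGATGGC were present in 14 promoters (23.7%), against 4.08% of all genes and 6.77% of bright genes. In 10 of these 14 (71.4%) they lay after the start of the gene, as in Mrps18b, Mrps7 and Mrpl50 above, and over all genes this was so in 48% of those that hold them. The ETS letters CCGGAAG were present in 20 (33.9%), against 11.6% and 20.2%. The E-box CACGTG was present in 6 (10.2%), close to its share of 9.69% among bright genes and 7.69% among all. At least 1 of the first 3 motifs was found in 33 of the 59 promoters (55.9%), against 16.4% of all genes. A match describes letters in a window of 300 bases and shows no binding.

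The tissues carried their own markers. The median log2 signal of a list of gastric gland genes was 12.92 to 13.51 on the stomach arrays and 6.57 to 6.87 on the jejunum arrays, that of absorptive enterocyte genes 12.96 to 13.43 on the jejunum arrays and 6.98 to 8.37 on the stomach arrays, and that of colonocyte genes 11.47 to 12.22 on the colon arrays and 7.79 to 8.40 on the jejunum arrays. Correlations between the 2 arrays of a group ran from 0.9469 to 0.9959 and array medians from 6.965 to 7.055. The arrays with the widest gap between the GAPDH control probes for the 3' and the 5' end, a sign of shortened RNA, were jejunum 24 h replicate 1 (0.816 in log2) and stomach 24 h replicate 1 (0.557). Pancreatic acinar genes stood high on stomach 72 h replicate 1 (median 13.16), colon 72 h replicate 2 (11.68) and colon 6 h replicate 1 (9.20), against medians of 7.36 and 6.50 over all stomach and colon arrays, and the gastric gland median was 9.28 on colon 24 h replicate 1 against a colon median of 6.62.

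Over time most genes of the mitochondrial ribosome had their lowest mean at 24 h in jejunum and colon and their highest at 72 h in each tissue, whether or not a difference was called. In the jejunum 61 of 73 had their lowest mean at 24 h and 64 their highest at 72 h, where 15.6% and 32.2% of all genes had theirs. In the colon 47 were lowest at 24 h (18.8% of all genes) and 53 highest at 72 h (27.3%). In the stomach 31 were lowest at 24 h (19.4%) and 55 highest at 72 h (24.5%). As a description of this likeness, with the mean of each tissue removed, a gene's correlation with the median of the others over the 30 arrays had a median of 0.85 and ran from 0.323 for Mrpl51 to 0.951 for Mrpl22. Arrays share their RNA quality and scaling across all genes, which can add to such correlations. With tissue means removed, the median of the 73 genes correlated with the GAPDH gap at -0.674 over the 30 arrays. The part of RNA quality and scaling in the likeness was not tested.

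**Figure D1:**
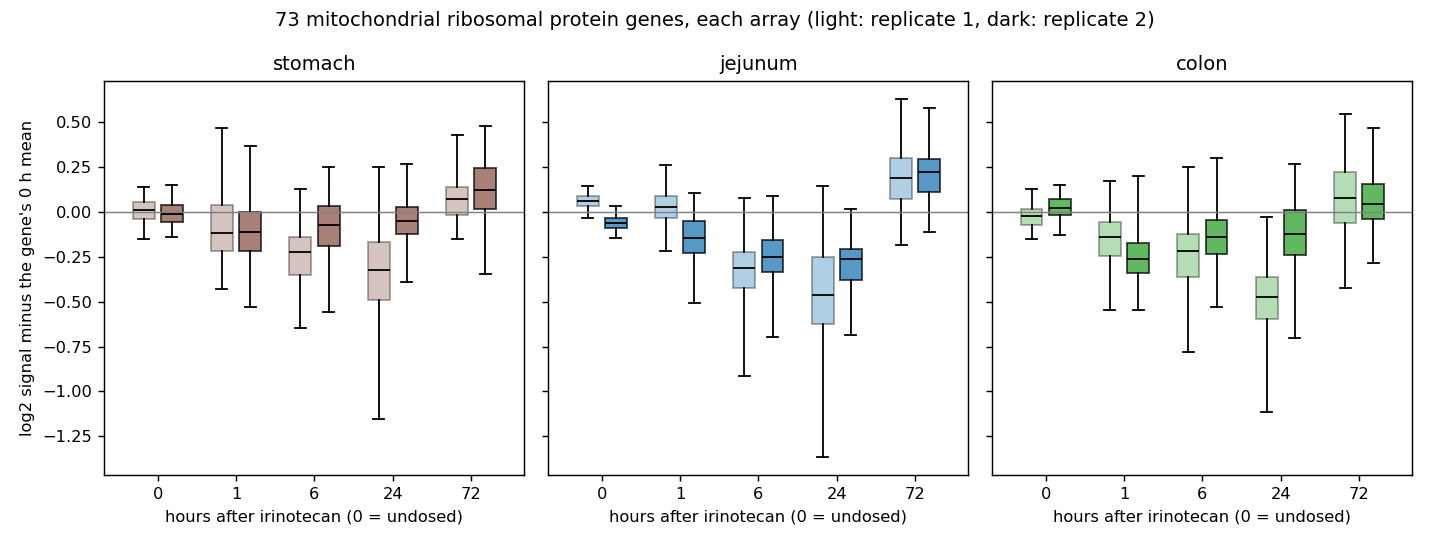
The boxes show, for each of the 30 arrays, the log2 signals of the 73 genes minus each gene's mean at 0 h in that tissue; the line in a box is the median, the box runs between the quartiles and the whiskers reach the lowest and highest gene, on evenly spaced times. The 2 jejunum arrays of 24 h have medians of -0.462 and -0.261 and the 2 of 72 h have 0.189 and 0.228.

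At 1 h in the jejunum none of the 73 genes was called by limma, with 1 at an unadjusted p under 0.05, where 0.0563% of all genes were called. The median was -0.05, and it was 0.03 without replicate 2 of 1 h and -0.14 without replicate 1. Mrpl35 had the smallest p (-0.19, adjusted p = 1).

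In the jejunum at 6 h 6 of the 73 genes had fallen against 0 h and none had risen. Lower calls made up 1.74% of all genes in that comparison. Of the 73, 72 lay below their 0 h mean, with a median of -0.28 in log2 against -0.02 for all genes, and for 65 both arrays of 6 h lay below both of 0 h (35.4% of all genes). The 6 were Mrps28, Mrps15, Mrpl1, Mrpl13, Mrpl18 and Mrpl35. All of them encode proteins with bacterial counterparts. Of 19 mitosis genes 16 fell over the same step, from median levels of 8.45 and 8.32 to 7.67 and 7.64. The goblet median was 12.35 and 12.33 at 0 h and 11.29 and 11.89 at 6 h, with none of 7 genes called by limma and none at an unadjusted p under 0.05. The part of these cells in the fall was not tested.

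Mrps28, a protein of the small subunit, had log2 signals of 8.47 and 8.33 at 0 h, 8.37 and 8.19 at 1 h, 7.77 and 7.84 at 6 h, 7.72 and 7.82 at 24 h, and 8.39 and 8.38 at 72 h in the jejunum. The arrays of 6 and 24 h lie apart from and below the other 6, and those of 72 h lie between the 2 of 0 h. The difference from 0 h was -0.59 ± 0.091 at 6 h (standard error, limma's adjusted p = 0.013, 1.51-fold lower) and -0.63 ± 0.091 at 24 h (adjusted p = 0.0325).

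Mrps15, which binds the ribosomal RNA of the small subunit, read 9.04 and 9.07 at 0 h, 8.55 and 8.57 at 6 h and 8.59 and 8.37 at 24 h. It was lower by 6 h with no overlap (-0.50 ± 0.091, adjusted p = 0.024) and at 24 h (-0.58 ± 0.091, adjusted p = 0.0414). The other probe set of Mrps15, far dimmer with a mean of 5.90 over the arrays, gave 0.00 at 6 h and -0.12 at 24 h. The mean of both lost the call, with adjusted p of 0.139 and 0.108.

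Mrpl35, a protein of the large subunit, read 9.59 and 9.58 at 0 h, 9.17 and 9.27 at 6 h and 8.96 and 9.09 at 24 h, so that each time lay wholly below the earlier one. It changed by -0.37 ± 0.081 at 6 h (adjusted p = 0.043) and -0.56 ± 0.081 at 24 h (adjusted p = 0.0325). Mrpl1, which forms the flexible stalk by the exit of used transfer RNA, fell from 9.60 and 9.52 to 8.93 and 9.11 at 6 h (-0.54 ± 0.11, adjusted p = 0.0318). Mrpl13 (-0.46) and Mrpl18 (-0.39), both of the large subunit, had adjusted p of 0.0228 and 0.0493.

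At 24 h in the jejunum 4 genes had fallen, Mrps28, Mrps15, Mrpl35 and Mrps14, against 0.148% of all genes called lower. All 73 lay below their 0 h means, with a median of -0.39 against -0.01 for all genes, and 67 did so with no overlap between arrays (23.4% of all genes). Mrps14, a small subunit protein, read 10.31 and 10.24 at 0 h and 9.78 and 9.81 at 24 h (-0.48 ± 0.077, adjusted p = 0.0419), and the mean of its probe sets lost the call (adjusted p = 0.0648). The values at 6 and 24 h are set against the same 2 arrays of 0 h, so the 2 comparisons do not stand apart from each other.

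The spread at 24 h was wide. The genes' median was -0.46 on replicate 1 and -0.26 on replicate 2, and 70 and 72 genes lay below their 0 h mean. The GAPDH 3' signal lay 0.816 above the 5' signal on replicate 1, with a gap of -0.057 on replicate 2, against 0.164 and 0.147 at 0 h. Without replicate 1 the median was -0.26 with 10 genes called lower, and without replicate 2 49 genes were called. Over the 10 jejunum arrays the genes' median and this gap correlated at -0.687. Other medians over these arrays also went with it, at 0.976 for cytosolic ribosomal protein genes, 0.816 for mitosis genes and 0.781 for macrophage genes. Smooth muscle genes had 0.13. The part of RNA quality or of these lists in the result was not tested. Leaving out any array of 6 h or 0 h took the count at 6 h to 0, with medians from -0.35 to -0.21, and leaving out either array of 0 h took that at 24 h to 0.

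**Figure D2:**
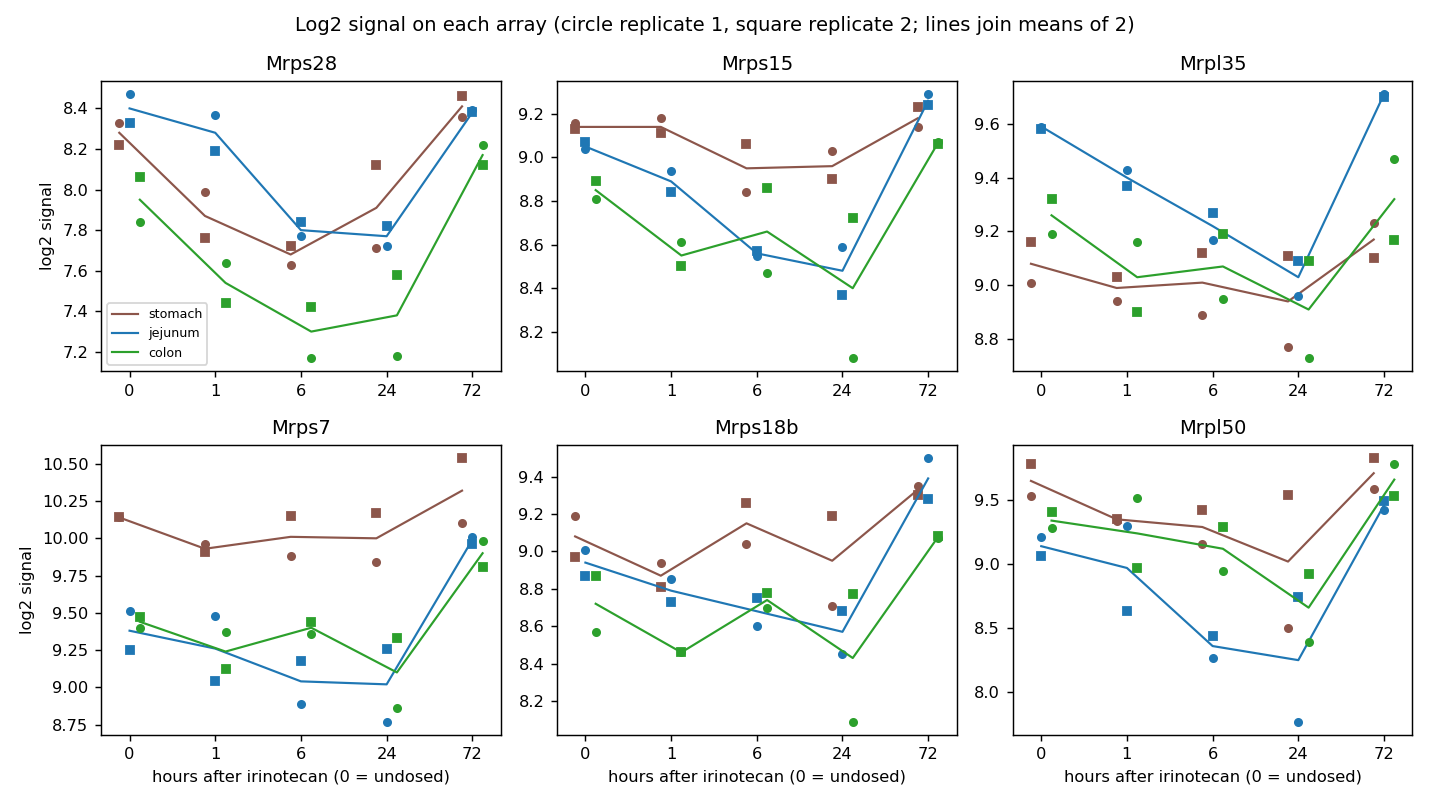
Log2 signals of 6 genes on each of the 30 arrays, circles for replicate 1, squares for replicate 2 and lines through the means of 2, over evenly spaced times with colours for the 3 tissues. Mrps28 in the jejunum lies at 7.72 to 7.84 at 6 and 24 h and at 8.19 to 8.47 at 0, 1 and 72 h.

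Between 24 and 72 h in the jejunum 59 of the 73 genes rose (80.8%) and none fell, where 13.7% of all genes rose. All 73 had a higher mean at 72 h, with a median of 0.57 in log2 against -0.01 for all genes, and 71 were higher with no overlap between arrays (29.5% of all genes). Of the large subunit 37 of 48 genes were called and of the small subunit 22 of 25, with medians of 0.59 and 0.57, a difference that was not tested. Of the genes with bacterial counterparts 34 of 42 were called, and of those found only in mitochondria 25 of 31, with medians of 0.59 and 0.54.

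The largest rise was that of Mrpl50, a large subunit protein found only in mitochondria. It read 7.77 and 8.74 at 24 h and 9.42 and 9.49 at 72 h, against 9.21 and 9.06 at 0 h (72 h minus 24 h 1.21 ± 0.29, 2.31-fold, adjusted p = 0.0273). Its 2 arrays of 24 h differ from each other by more than the second differs from 72 h, and without replicate 1 of 24 h the rise was 0.72. A second probe set for Mrpl50 gave 0.64 (adjusted p = 0.00297). Mrpl42, also mitochondrial only, read 8.45 and 9.34 at 24 h and 9.92 and 9.97 at 72 h (1.05 ± 0.27, adjusted p = 0.0364), with the same array low.

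Mrps7, which binds ribosomal RNA in the head of the small subunit, read 8.77 and 9.26 at 24 h and 10.01 and 9.96 at 72 h, against 9.51 and 9.25 at 0 h. The arrays of 72 h lie above all 8 others of the jejunum. It rose by 0.97 ± 0.19 over 24 h (1.96-fold, adjusted p = 0.0125) and by 0.61 ± 0.19 over 0 h (adjusted p = 0.0478). Mrps18b, 1 of 3 relatives of a bacterial small subunit protein, read 8.45 and 8.68 at 24 h, 9.50 and 9.28 at 72 h and 9.01 and 8.87 at 0 h. Its groups do not overlap, and the rise over 24 h was 0.83 ± 0.12 (1.77-fold, adjusted p = 0.00347).

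Others of the 10 highest called rises were Mrpl23 (0.94), Mrpl22 (0.91), Mrpl39 (0.91), Mrps9 (0.90), Mrps22 (0.83) and Mrpl32 (0.81), with adjusted p from 0.00486 to 0.0305. Mrpl22 and Mrpl23 lie along or at the end of the tunnel through which the new protein leaves the ribosome, and Mrpl32 is cut by a mitochondrial protease before it can be built in. For Mrps22 the second probe set gave -0.20, and the mean of both lost the call (adjusted p = 0.0649). At the other end Mrps31, a small subunit protein found only in mitochondria, lay between 9.52 and 9.70 on all 10 jejunum arrays, with means that span 0.05.

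Calls kept whichever of the 4 arrays was left out were those of 16 genes: Mrpl1, Mrpl13, Mrpl16, Mrpl28, Mrpl32, Mrpl35, Mrpl38, Mrpl46, Mrpl54, Mrpl58, Mrps14, Mrps15, Mrps18a, Mrps18b, Mrps28 and Mrps30. Mrpl58 frees stalled ribosomes by cutting the chain from its transfer RNA. The count was 50 without replicate 1 of 24 h, 66 without replicate 2 of 24 h, 17 without replicate 1 of 72 h and 20 without replicate 2 of 72 h, with medians of 0.49 to 0.63. Quantile normalization of the deposited values lowered the median to 0.45 and the count to 41, all of them among the 59. Of 24 further probe sets of the 18 genes with several, 7 were called. Their median was 0.301, against 0.571 for the brightest of these genes.

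**Figure D3:**
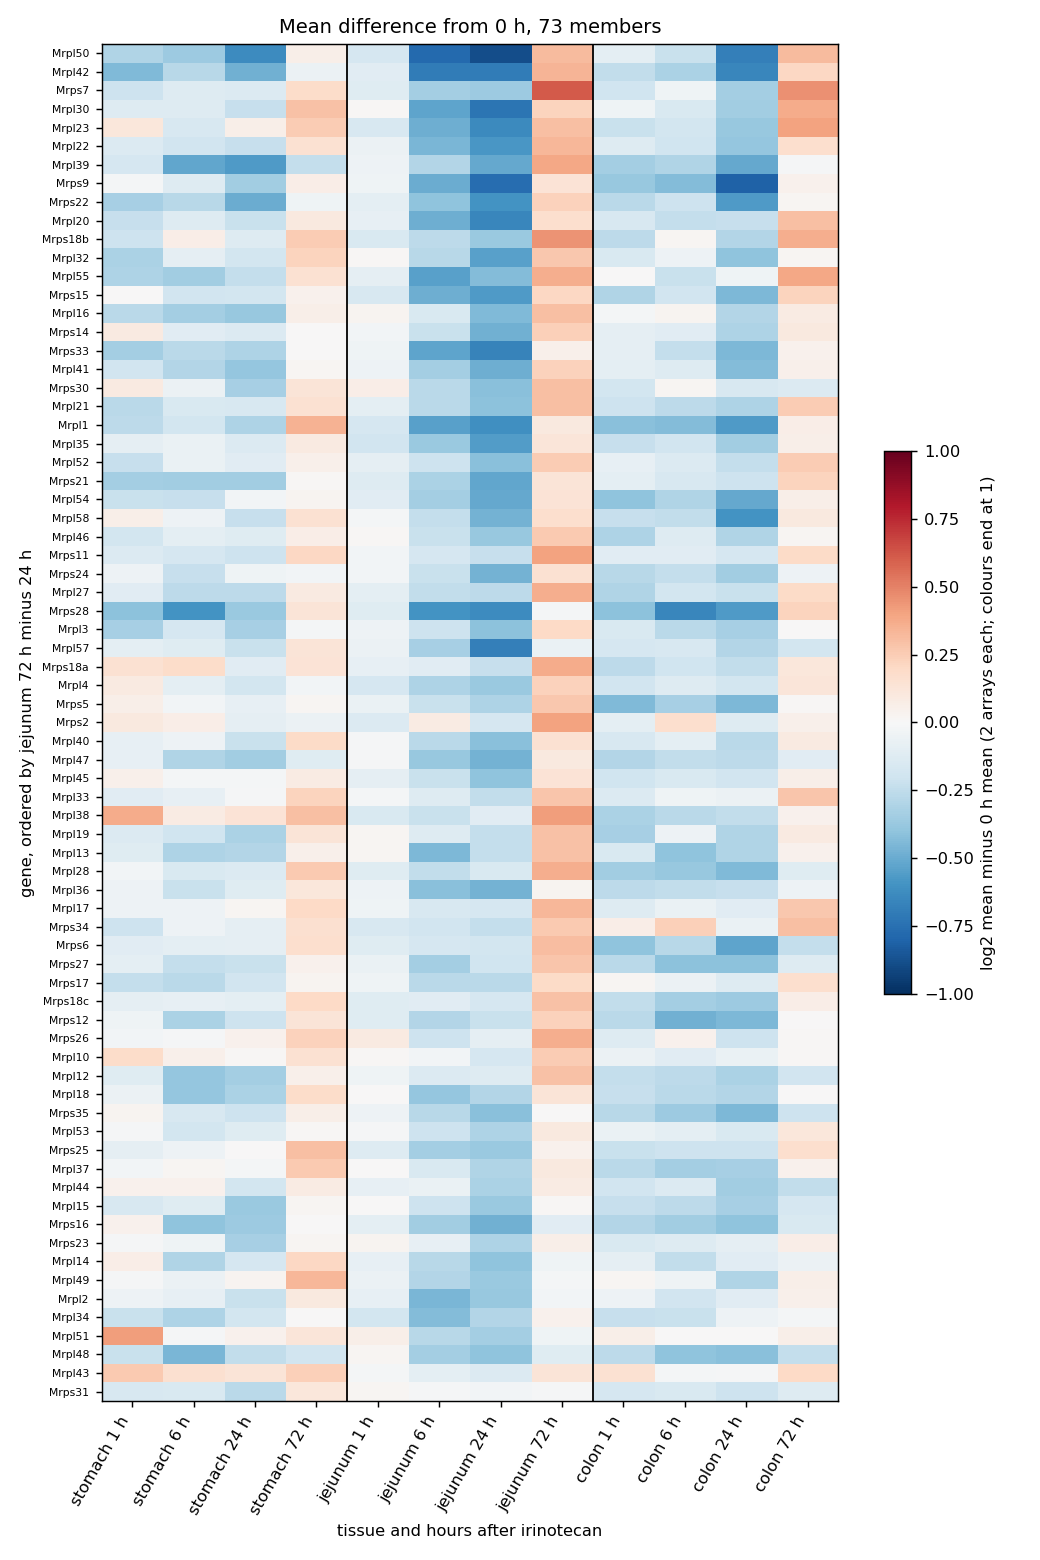
Mean log2 difference from 0 h of the same tissue (2 arrays each) for the 73 genes in rows, ordered by the difference of jejunum 72 h and 24 h, and for 3 tissues at 4 times in columns; blue is lower and red higher than 0 h. In the jejunum all 73 rows are below 0 at 24 h and 64 are above 0 at 72 h.

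Against 0 h, 16 genes were higher in the jejunum at 72 h (21.9%) and none lower. Higher calls made up 16.5% of all genes, so the share is near the background. The median was 0.23 against -0.01 for all genes and 0.13 for the bright genes, 64 of 73 lay above 0, and for 55 the arrays did not overlap (38.2% of all genes). The 10 highest were Mrps7 (0.61), Mrps18b (0.45), Mrpl38 (0.42), Mrps2 (0.40), Mrps11 (0.40), Mrps18a (0.37), Mrpl28 (0.37), Mrps26 (0.36), Mrpl17 (0.32) and Mrps6 (0.31). By subunit, 9 of 25 small and 7 of 48 large subunit genes were called, a difference that was not tested.

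Mrpl38, a large subunit protein found only in mitochondria, had the smallest adjusted p of the 73 genes there (0.00651). It read 7.64 and 7.71 at 0 h, 7.52 and 7.59 at 24 h and 8.12 and 8.06 at 72 h, so that the 2 arrays of 72 h lie above the other 8. It was 0.42 ± 0.075 higher than at 0 h. After quantile normalization the median fell to 0.09, 1 gene was called, and the median of the bright genes fell from 0.13 to 0.02, while the median of all genes moved by under 0.1. Leaving out an array gave 0 to 4 calls. Of 24 further probe sets of the 18 genes with several, 10 had the sign of the brightest at 72 h against 0 h, with a median of 0.04, against 24 of 24 at 24 h against 0 h and 19 of 24 at 72 h against 24 h. The further probe sets of Mrps2 (-0.10 and 0.03) and Mrps26 (-0.12) did not share the rise over 0 h, and the means over probe sets lost both calls (adjusted p = 0.396 and 0.26).

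Other groups of genes were set beside them in the jejunum between 24 and 72 h, where 18.2% of all genes were called in either direction. Of 42 cytosolic ribosomal protein genes 33 rose, with a median of 0.55. Of 24 genes for ribosome production in the nucleolus, a list added after the data were seen, 22 rose with a median of 0.81. Of 79 genes of the respiratory chain, which the mitochondrial ribosome helps to supply, limma called 0 higher and 1 lower, with 26 at an unadjusted p under 0.05 and a median of 0.18. At 72 h the respiratory chain lay below its 0 h level on both arrays (medians of -0.23 and -0.15), where the mitochondrial ribosomal proteins lay above theirs (0.19 and 0.23). This contrast was not tested. Quantile normalization lowered the median of the mitochondrial ribosomal proteins at 72 h against 0 h from 0.23 to 0.09. At 24 h both groups were low: on replicate 1 the medians were -0.57 and -0.46 and on replicate 2 -0.23 and -0.26.

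Marker lists were also followed over this step, where 13.7% of all genes rose. Of 19 mitosis genes 18 rose, and their median level was 8.17 and 8.27 on the arrays of 24 h and 8.99 or higher on both of 72 h. Of 13 macrophage genes 6 rose, from median levels of 6.99 and 7.45 to 8.14 and 7.82. Of 7 goblet cell genes 1 rose, from 10.78 and 12.53 to 12.85 and 12.99, and of 10 smooth muscle genes 1 rose, from 11.69 and 10.70 to 11.41 and 11.65. Both counts are near the background, and the smooth muscle levels overlap between the times. Of 10 absorptive enterocyte genes 2 fell. The part of cell make-up in the rise of the mitochondrial ribosomal genes was not tested.

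The rest of the pathway was taken from lists of the genes that serve mitochondrial translation. Proteins of the mitochondrial ribosome with other names rose between 24 and 72 h in the jejunum, 5 of the 5 measured, with a median of 0.66. Among them Dap3, which binds GTP in the small subunit, read 8.78 and 8.63 at 24 h and 9.09 and 9.10 at 72 h (0.39 ± 0.088, adjusted p = 0.022). Chchd1 read 9.19 and 9.78 and then 10.62 and 10.51 (1.08 ± 0.19, adjusted p = 0.00872). Both were higher on each array of 72 h than on each of 24 h.

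Of 24 genes for assembly of the mitochondrial ribosome and modification of its RNA 6 rose (25%), with a median of 0.17. Malsu1, which keeps the large subunit from joining too early, read 7.87 and 8.37 at 24 h and 9.18 and 9.22 at 72 h (1.08 ± 0.16, adjusted p = 0.00394). Of 13 translation factors and messenger RNA binding proteins 5 rose (median 0.27), among them Gfm1 (0.77), the elongation factor that moves the ribosome along, Tufm (0.64), which brings the transfer RNA, and Lrpprc (0.70), which stabilizes mitochondrial messages. Of 16 mitochondrial transfer RNA synthetases and related enzymes 3 rose (18.8%, near the 13.7% of all genes) with a median of 0.15, and Yars2, the enzyme for tyrosine, had 1.35 ± 0.17 (adjusted p = 0.00256). The synthetases had 3 of 16 calls where the mitochondrial ribosomal proteins had 59 of 73, a difference that was not tested.

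Of 13 genes that transcribe and copy mitochondrial DNA 9 rose, with a median of 0.49. Tfam, which packs mitochondrial DNA and starts its transcription, read 9.53 and 9.37 at 0 h, 8.82 and 8.90 at 6 h, 9.10 and 9.25 at 24 h and 10.04 and 9.92 at 72 h. It fell at 6 h (-0.59 ± 0.095, adjusted p = 0.0163), was at -0.27 at 24 h (adjusted p = 0.214) and rose by 0.80 ± 0.095 from 24 to 72 h (adjusted p = 0.00195). Its 2 arrays of 72 h lie above the other 8. Top1mt, the topoisomerase I of mitochondria, read 6.75 and 6.51 at 0 h, 6.44 and 6.62 at 24 h and 7.08 and 6.98 at 72 h, and was higher at 72 h than at 0 h (0.41 ± 0.11, adjusted p = 0.0312) and than at 24 h (0.50, adjusted p = 0.0207). Polrmt, the RNA polymerase of mitochondria, was 0.31 higher at 72 h than at 0 h (adjusted p = 0.0323) and 0.07 higher than at 24 h (adjusted p = 0.609).

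Among 9 regulators of mitochondrial biogenesis 2 rose between 24 and 72 h (22.2%, where 13.7% of all genes rose). Gabpa rose by 0.37 ± 0.097 (adjusted p = 0.0374) and Myc by 0.63 ± 0.16 (adjusted p = 0.0316). Nrf1 was at 0.23 (adjusted p = 0.138). Ppargc1a, the coactivator PGC-1alpha, read 8.81 and 8.82 at 0 h, 8.59 and 8.58 at 24 h and 8.14 and 8.26 at 72 h, and was lower at 72 h than at 0 h (-0.61 ± 0.11, adjusted p = 0.00723), with no overlap. Against 24 h it was at -0.38 (adjusted p = 0.0537). The median of the mitochondrial ribosomal proteins at 72 h against 0 h was 0.23, and 0.09 after quantile normalization. Any relation of these regulators to the mitochondrial ribosomal proteins was not tested.

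**Figure D4:**
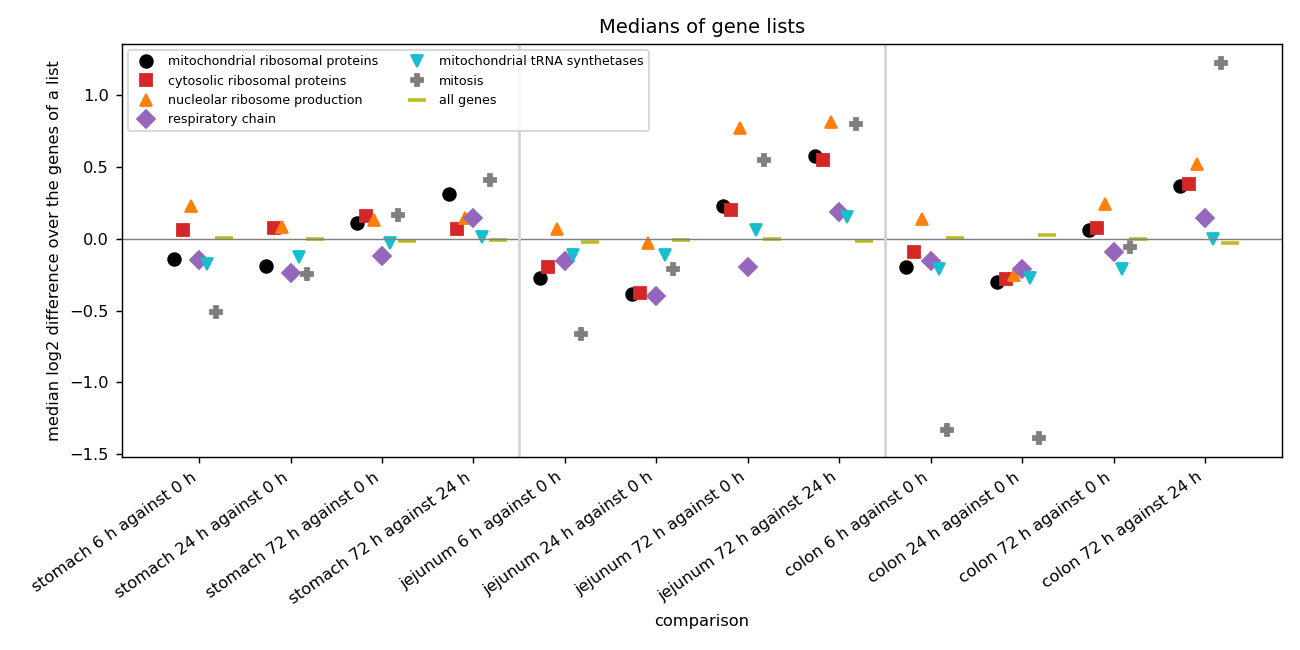
Median log2 difference of each gene list in 12 comparisons, with circles for the 73 mitochondrial ribosomal protein genes, other symbols for 5 further lists and dashes for all genes. For jejunum 72 h against 24 h the circle (0.57) lies beside the square of the cytosolic ribosomal proteins (0.55) and above the diamond of the respiratory chain (0.18).

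In the colon none of the 73 genes was called at 1, 6, 24 or 72 h against 0 h by limma, with 13, 14, 33 and 3 at an unadjusted p under 0.05. Over all genes 0%, 1.64%, 1.79% and 1.81% were called. The medians were -0.20, -0.20, -0.30 and 0.06. At 24 h the 2 arrays differed: replicate 1 had a median of -0.48 with all 73 genes below their 0 h mean, and replicate 2 had -0.13 with 53 below. Without replicate 2 12 genes were called lower and without replicate 1 none. Their GAPDH gaps were alike, 0.346 and 0.385, against 0.273 and 0.096 at 0 h. The gastric gland median was high on replicate 1, at 9.28, and the goblet median was 11.19 on replicate 1 and 13.25 on replicate 2. The smooth muscle median was 12.84 on replicate 1 and 12.57 on replicate 2, against 12.42 and 12.29 at 0 h. Over the 10 colon arrays it correlated with the median of the 73 genes at -0.901 (stomach -0.496, jejunum 0.13). In the colon the median of cytosolic ribosomal protein genes correlated with that of the 73 genes at 0.938. For mitosis genes this was 0.761, and for the GAPDH gap -0.64. The part of these lists in the spread was not tested.

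Mrps28 had the smallest p in the colon at 6 h. It read 7.84 and 8.06 at 0 h, 7.17 and 7.42 at 6 h and 8.22 and 8.12 at 72 h, and its difference at 6 h, -0.65, had an adjusted p of 0.0835. At 24 h the smallest p were those of Mrps22 (-0.57, adjusted p = 0.0578), Mrps9 (-0.81, adjusted p = 0.0778) and Mrpl58 (-0.60, adjusted p = 0.0968). At 72 h Mrps7 (0.46, adjusted p = 0.167) came first, and at 1 h Mrps5 (-0.44, adjusted p = 0.286).

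Between 24 and 72 h in the colon 11 of the 73 genes rose (15.1%), where 5.16% of all genes rose. All 73 means were higher at 72 h, with a median of 0.36 against -0.03 for all genes, and 58 genes did not overlap between arrays (25.3% of all genes). Mrpl50 again had the largest difference. It read 8.39 and 8.92 at 24 h and 9.78 and 9.53 at 72 h, against 9.28 and 9.41 at 0 h (1.00 ± 0.21, adjusted p = 0.0254). Mrpl42 (0.86), Mrps9 (0.85), Mrps7 (0.80), Mrps28 (0.79), Mrpl30 (0.73), Mrpl58 (0.70), Mrpl1 (0.64), Mrps22 (0.59), Mrpl21 (0.56) and Mrpl41 (0.48) followed, with adjusted p from 0.0186 to 0.0382. The second probe sets of Mrpl50 (0.385), Mrps9 (0.526) and Mrps22 (-0.225) were not called, with adjusted p of 0.122, 0.101 and 0.232. Of 24 further probe sets of the 18 genes with several, 16 had the sign of the brightest and 1 was called. Their median was 0.161, against 0.359 for the brightest of these genes.

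Mrps28 read 7.18 and 7.58 at 24 h in the colon and 8.22 and 8.12 at 72 h, with no overlap (0.79 ± 0.15, adjusted p = 0.0188). The count was 0 without replicate 1 of 24 h, 39 without replicate 2 of 24 h, 0 without replicate 1 of 72 h and 6 without replicate 2 of 72 h. No call was kept whichever array was left out. Leaving out the arrays with high pancreatic acinar signal, colon 72 h replicate 2 and colon 6 h replicate 1, gave 4. Of 19 mitosis genes 18 rose over the same step, from median levels of 7.47 and 7.50 to 8.71 and 8.66, and of 13 macrophage genes 2 rose, from 7.30 and 7.96 to 8.34 and 8.77. Their part in the result was not tested.

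Of the other genes of mitochondrial translation, 6 of 80 rose in the colon between 24 and 72 h (7.50%), a share near the 5.16% of all genes: Yars2 (0.87), Trmt10c (0.71), Tfb1m (0.69), Gfm1 (0.64), Ssbp1 (0.58) and Aurkaip1 (0.50), with adjusted p from 0.0268 to 0.0451. Tfam was at 0.49 (adjusted p = 0.109). Fars2, the mitochondrial enzyme that charges phenylalanine, fell in the colon at 6 and 24 h and was named because it passed the threshold. Of all genes 1.64% and 1.79% were called at these times. Fars2 read 7.82 and 7.77 at 0 h, 6.89 and 7.04 at 6 h and 7.15 and 7.27 at 24 h, with differences of -0.82 ± 0.10 (adjusted p = 0.00451) and -0.58 ± 0.10 (adjusted p = 0.0305). No mitochondrial ribosomal protein gene was called at these times, a contrast that was not tested.

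In the stomach none of the 73 genes was called in any of the 5 comparisons by limma, with 5, 11, 11 and 3 at an unadjusted p under 0.05 at 1, 6, 24 and 72 h against 0 h and 30 at 72 h against 24 h. Of all genes 0.0281%, 0.0492%, 0.0211% and 0.0141% were called against 0 h and 0.00703% against 24 h. Medians against 0 h were -0.10, -0.14, -0.19 and 0.11. All 73 means were higher at 72 h than at 24 h, with a median difference of 0.31, and for 50 the arrays did not overlap (16.8% of all genes). The arrays of 24 h differed, with medians of -0.33 on replicate 1, the array with a GAPDH gap of 0.557, and -0.05 on replicate 2. Without replicate 1 the median from 24 to 72 h was 0.15. Markers of other cells also differed between these arrays. The pancreatic acinar median was 7.05 and 7.24 at 24 h and 13.16 and 8.55 at 72 h, the macrophage median 7.32 and 7.90 and then 8.05 and 8.57, and that of forestomach squamous genes 8.94 and 8.46 and then 7.82 and 10.98. None of these 15, 13 and 11 genes was called by limma, with 13, 9 and 0 at an unadjusted p under 0.05. The smooth muscle median was 12.85 and 12.05 at 24 h and 12.17 and 12.40 at 72 h. The part of these lists in the median was not tested.

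Mrps28 had the widest range of means in the stomach, 0.73. It read 8.33 and 8.22 at 0 h, 7.99 and 7.76 at 1 h, 7.63 and 7.72 at 6 h, 7.71 and 8.12 at 24 h and 8.36 and 8.46 at 72 h, so that the arrays of 6 h lie below those of 0 h (-0.60, adjusted p = 0.253). Mrps30, which sits in the large subunit, had the smallest p from 24 to 72 h. It read 8.46 and 8.47 at 24 h and 8.94 and 8.93 at 72 h (0.47 ± 0.084, adjusted p = 0.308). Mrpl51, a large subunit protein found only in mitochondria, had higher values at 1 h, with 9.03 and 8.93 against 8.49 and 8.63 at 0 h (0.42, adjusted p = 0.778).

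Whether the response differed between tissues was tested by an interaction in a fit of all 30 arrays, which takes the tissues as independent although they share rats. None of the 73 genes was called at 1, 6, 24 or 72 h, with 2, 0, 1 and 3 at an unadjusted p under 0.05. Over all genes 0.00703%, 0.267%, 0.324% and 3.09% were called. The smallest adjusted p were 0.373 for Mrpl38 at 1 h, 0.424 for Mrpl43 at 6 h, 0.354 for Mrpl54 at 24 h and 0.166 for Mrpl28 at 72 h. For Mrpl28 the change from 0 to 72 h was 0.48 higher in the jejunum than in the colon. Calls in the jejunum and none in the stomach are thus no tested difference between the tissues.

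The tissues of undosed rats were compared in the same fit. In the jejunum 10 genes were higher and 14 lower than in the stomach, and in the colon 11 were higher and 12 lower than in the stomach. Between colon and jejunum 3 were higher in the colon and 3 lower. Over all genes 39.1%, 37.9% and 47.7% were called in these comparisons, beside 32.9%, 31.5% and 8.22% of the mitochondrial ribosomal proteins. The difference in shares was not tested, and with array weights or quantile normalization 35 of the 73 genes were called between colon and stomach. After quantile normalization the split turned towards lower in the colon, with 4 higher and 31 lower against the stomach and 1 higher and 18 lower against the jejunum. Averaged over their probe sets, Mrpl10 (0.02), Mrpl12 (0.21) and Mrpl37 (0.13) lost their calls as higher in jejunum than in stomach. Their adjusted p from limma were 0.939, 0.174 and 0.464. Mrpl49, Mrpl51, Mrps14 and Mrps24, which also have several probe sets, kept theirs in that comparison. Mrps27 lost its call as higher in colon than in jejunum (0.16, adjusted p = 0.181).

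Mrps6, a small subunit protein with a bacterial counterpart, differed most. It read 9.34 and 9.41 in stomach, 9.09 and 9.11 in jejunum and 10.72 and 10.95 in colon. The colon was 1.47 ± 0.20 higher than the stomach (2.76-fold, adjusted p = 1.94e-05) and 1.74 ± 0.20 higher than the jejunum (3.34-fold, adjusted p = 2.07e-06), and both calls held whichever array was left out. Over all times its 10 colon arrays lay at 10.13 to 10.95, above the highest of stomach (9.73) and jejunum (9.42).

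The RefSeq table for GRCr8 places Slc5a3, the gene of a transporter for myo-inositol, inside the span of Mrps6, the only such case among the 73 genes. It was looked up after the values of Mrps6 were seen. The brighter probe set of Slc5a3 read 7.30 and 7.39 in stomach, 7.06 and 7.45 in jejunum and 9.61 and 9.55 in colon at 0 h, and was 2.24 ± 0.44 higher in colon than in stomach (adjusted p = 0.000792). A second, dimmer probe set read 6.08 and 6.02 in stomach and 6.02 and 6.12 in colon (0.02, adjusted p = 0.893). Whether the probe set named Mrps6 reads transcripts of Slc5a3 was not tested, so its values in the colon are uncertain as a measure of Mrps6. In that table the spans of 16 of the 73 genes touch another protein coding gene, Mrpl22, Mrpl55 and Mrps2 among them.

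Other members differed from the stomach in both intestinal tissues. Mrpl51 read 8.49 and 8.63 in stomach, 9.23 and 9.22 in jejunum and 9.19 and 9.20 in colon (0.67 ± 0.11 and 0.64 ± 0.11 above stomach, adjusted p = 0.000112 and 0.000255). The mean of its 4 probe sets was 0.29 higher in jejunum than in stomach (adjusted p = 0.00509), less than 0.67 by over 1.5 times. Mrps31 was 0.74 and 0.49 higher, and Mrpl49 0.69 and 0.46. Mrpl39, which resembles a transfer RNA synthetase, went the other way, with 9.49 and 9.38 in stomach, 8.56 and 8.44 in jejunum and 8.63 and 8.61 in colon (-0.93 ± 0.20 and -0.82 ± 0.20, adjusted p = 0.00124 and 0.00414). Mrpl42 was at -0.99 and -0.82. For these 5 genes jejunum and colon did not differ past the threshold, with adjusted p from 0.106 to 0.84. Mrps30 was higher in colon than in stomach (0.36) and jejunum (0.44 ± 0.10, adjusted p = 0.00256), where stomach and jejunum overlap. Of the differences between undosed tissues, 9, 4 and 2 calls held whichever array was left out.

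**Figure D5:**
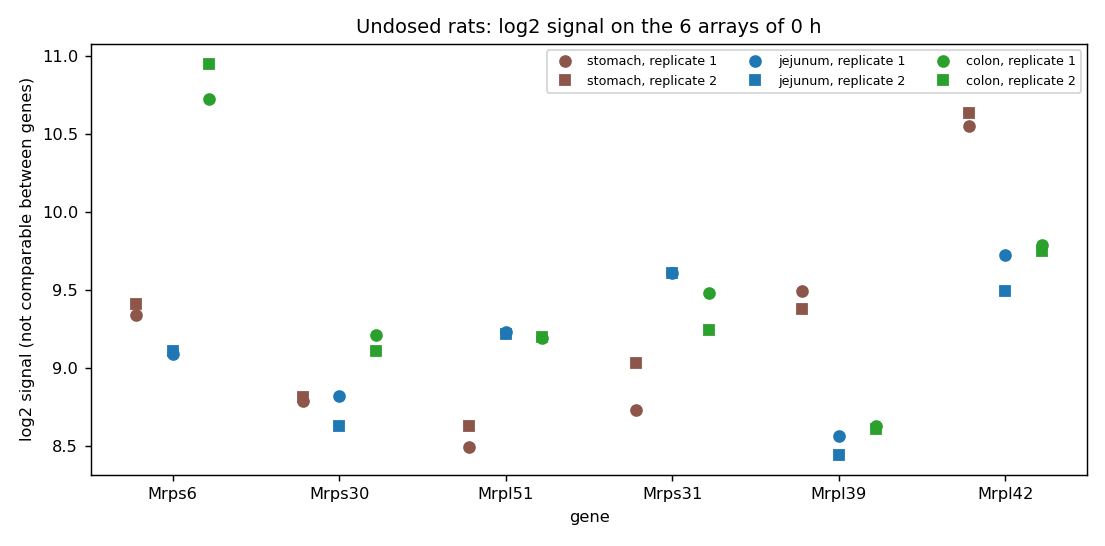
Log2 signals of 6 genes on the 6 arrays of undosed rats, 2 per tissue, with colours for tissues and shapes for replicates. Mrps6 lies at 10.72 and 10.95 in colon and at 9.09 to 9.41 in stomach and jejunum.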

How the data were processed

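The submitters' processing notes name RMA, and the deposited values are log2 signals on Affymetrix rat expression arrays, 1 array per pool of 3 rats. The sources used here give no RMA version, and probe-level files were not used. The table has 31099 probe sets. Without the array's 57 controls 31042 remained to test, of which 20826 had 1 symbol in the platform annotation.

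Within each tissue the 10 arrays of 5 times were fitted with limma 3.58.1 under R 4.3.3, and Benjamini-Hochberg adjustment ran over all 31042. Genes at an adjusted p under 0.05 were called. Tissue differences came from 1 fit of all 30 arrays. Fits were tested on simulated data. Each error is limma's standard error of a log2 difference of 2 arrays against 2, and all p are two-sided. With 2 pools a group the number of arrays limits the precision. No pairing of replicate numbers is stated, and the arrays were fitted without one.

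The members, lists and the naming rule were chosen with earlier results of these data known. The rule takes, in each comparison, the 10 highest and 10 lowest members past the threshold, or the 3 smallest p where none passed, at most 6 other pathway genes, Top1mt, Tfam, Polrmt, Ppargc1a, Nrf1, Gabpa and Myc, and the 5 members with the widest range of means per tissue. Mrps31 in the jejunum, Mrpl41 in the colon and the genes beyond 6 of the pathway in the jejunum were added after their values were seen, to show low ends and roles. Alternatives were array weights, trend and robust variances, 1 fit of 30 arrays, a replicate block, quantile normalization, dropping dim probe sets, means of all probe sets of a gene, leaving out arrays, and, added after the data were seen, leaving out arrays of high acinar signal. Promoters come from a RefSeq table, and the NRF1 letters were shortened by a base at each end after a first search.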

Additional observations from a re-analysis of the deposited data

How the results depend on the processing

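No median or named difference changed sign under the settings other than leaving out single arrays, and of named differences under them 963 kept their side of the threshold, 90 lost the call and 8 gained it. Leaving out 1 array of the compared groups turned the sign of the median for jejunum 1 h (-0.14 to 0.03) and for undosed colon against jejunum (-0.07 to 0.06), and for no called difference.

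Calls ranged, with 1 array left out, from 0 to 0 for jejunum 6 h, 0 to 49 for jejunum 24 h, 0 to 4 for jejunum 72 h, 17 to 66 for jejunum 72 h against 24 h, 0 to 12 for colon 24 h, 0 to 39 for colon 72 h against 24 h, and 13 to 18, 6 to 12 and 2 to 5 for undosed jejunum against stomach, colon against stomach and colon against jejunum. Medians ranged from -0.11 to -0.10, -0.23 to -0.07, -0.327 to -0.045 and 0.08 to 0.13 in the stomach at 1, 6, 24 and 72 h and 0.15 to 0.44 for 72 h against 24 h. In the jejunum they ranged from -0.35 to -0.21, -0.47 to -0.26 and 0.14 to 0.28 at 6, 24 and 72 h and 0.49 to 0.63 for 72 h against 24 h. In the colon they ranged from -0.26 to -0.14, -0.22 to -0.14, -0.48 to -0.13 and 0.03 to 0.10 at 1, 6, 24 and 72 h and 0.18 to 0.56 for 72 h against 24 h, and for undosed jejunum and colon against stomach from -0.17 to -0.02 and -0.17 to -0.13.

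With 1 fit of all 30 arrays the counts were 1 for stomach 6 h, 1 for stomach 72 h against 24 h, 2, 0 and 6 for jejunum 6, 24 and 72 h, 3 and 7 for colon 6 and 24 h, and 21 for colon 72 h against 24 h. With array weights they were 34, 0 and 26 for jejunum 6, 24 and 72 h, 37 for jejunum 72 h against 24 h, 1 for colon 6 h, 6 for colon 72 h against 24 h, and 35 and 13 for undosed colon against stomach and jejunum. Without the arrays of high GAPDH 3' signal the medians were -0.045 for stomach 24 h, 0.15 for stomach 72 h against 24 h and -0.26 for jejunum 24 h, with counts of 26, 10 and 26 for jejunum 6, 24 and 72 h. With trend and robust variances 1 and 8 genes were called for jejunum 24 and 72 h, and with means of probe sets 2 for jejunum 24 h. Quantile normalization gave medians of 0.18 for stomach 72 h against 24 h, 0.088 with a count of 1 for jejunum 72 h, 0.45 for jejunum 72 h against 24 h, -0.074 for colon 1 h, and -0.36 and -0.18 with counts of 35 and 19 for undosed colon against stomach and jejunum. With the 6 arrays of 0 h alone these counts were 36 and 10. Without the arrays of high acinar signal 4 genes were called for colon 72 h against 24 h. The cause was not tested for any of these.

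Replicate numbers carry no stated pairing. Deviations of same-numbered arrays correlated from -0.582 to 0.434 over pairs of times, with 6, 2 and 3 of 10 above 0.1 in stomach, jejunum and colon. With the replicate block the counts were 3, 0 and 7 for jejunum 6, 24 and 72 h, 10 for undosed colon against jejunum and 1 for the tissue difference at 72 h, and each other count stayed within 1.5 times.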
